A study of Mus musculus with 23 samples.

Results

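Tumor necrosis factor (Tnf), the lymphotoxins Lta and Ltb, the death ligand Tnfsf10 (TRAIL) and the TNF receptors Tnfrsf1a and Tnfrsf1b are described here in 23 MC38 tumors. So are the brake gene Tnfaip3 (A20) and the ubiquitin ligase gene Birc3 (cIAP2). These 8 genes, of 26869 in the count table, were chosen as a group by measured values of the same tumors, namely their changes with an antibody against PD-1 (aPD1) in each host line, in which Tnf stood out. These changes are therefore a description and carry no p-value, nor do differences between responder and non-responder hosts that include the aPD1 tumors, or any value of Tnf. MC38 is a single mouse colon carcinoma cell line, which was placed under the skin of female mice aged 8 to 12 weeks. Tumors of 75 to 110 mm3 were given 200 µg of aPD1 or isotype control antibody once, into the peritoneal cavity, and were taken 48 h later for bulk poly(A) RNA sequencing.

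The hosts were F1 crosses of the Collaborative Cross, a panel of recombinant inbred mice with diverse founders, and all shared C57BL/6J as a parent. The R (responder) lines were C57BL/6J x CC001/UncJ (CC001F1), C57BL/6J x CC002/UncJ (CC002F1) and C57BL/6J x CC075/UncJ (CC075F1). The NR (non-responder) lines were C57BL/6J x CC036/UncJ (CC036F1), C57BL/6J x CC079/TauUncJ (CC079F1) and C57BL/6J x CC080/TauUncJ (CC080F1). These classes are those of the study's text, as the sample labels do not give them. Each line had 2 tumors per antibody, except CC080F1 with aPD1, which had 1, giving 6 R isotype, 6 R aPD1, 6 NR isotype and 5 NR aPD1 tumors. Library totals ran from 14494014 to 71868253 counts with a median of 42327589, and 4 of the 6 libraries under 30000000 counts were NR.

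TNF is made as a membrane trimer, mostly by macrophages and activated T cells, and is shed by the protease ADAM17. It binds TNFR1, found on most cells, and TNFR2, found mainly on immune and endothelial cells. TNFR1 assembles a complex of TRADD, RIPK1, TRAF2 and the cIAP ubiquitin ligases that turns on NF-kB, or, when that complex fails, death by caspase-8 or by RIPK3 and MLKL. A20 takes ubiquitin chains off this complex and is itself an NF-kB target, so that its transcript is widely read as a record of NF-kB activity. Lymphotoxin alpha binds the TNF receptors as a homotrimer and, joined to membrane-bound lymphotoxin beta, binds LTBR, the receptor that builds lymph nodes and tertiary lymphoid tissue. TRAIL, which interferons induce, kills cells through its own death receptor.

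Tnf, Ltb and Lta form a cluster on mouse chromosome 17 within the major histocompatibility complex. In GENCODE vM21 on GRCm38, Ltb lies at 35194439 to 35196320 on the plus strand, Tnf at 35199381 to 35202007 on the minus strand and Lta at 35203165 to 35205351 on the minus strand. The gap between Ltb and Tnf is 3060 bp and that between Tnf and Lta 1157 bp, so the annotated genes do not overlap. This is a region in which the founder haplotypes of the hosts differ, and the counts are sums over haplotypes. The other members are dispersed, with Tnfsf10 on chromosome 3, Tnfrsf1b on 4, Tnfrsf1a on 6, Birc3 on 9 and Tnfaip3 on 10.

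Short stretches around promoter motif matches of the members are shown as a description. A link between these matches and the changes with aPD1 was not tested. Windows reaching from 250 bases upstream to 50 bases downstream of RefSeq starts (GRCm38.p6) were found for all 8 genes, 9 windows in all. They were searched on both strands for the kappaB site that NF-kB binds, for the core of the interferon-stimulated response element and for the TATA box (TATAAA). Of 32851 windows of all genes, 8.46% held a kappaB match, 3.44% the interferon element core and 13.6% the TATA box. Each stretch has 30 bases and is written 5′ to 3′ on the strand of its gene, the motif in capitals.
Tnf TATA box: ttccccaagggcTATAAAggcggccgtctg
Ltb kappaB: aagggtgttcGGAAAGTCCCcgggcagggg
Tnfaip3 kappaB, upstream: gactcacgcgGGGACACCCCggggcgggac
Tnfaip3 kappaB, at the start: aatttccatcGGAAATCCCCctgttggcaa
Tnfrsf1b interferon element core: ggcctgagggTTTCGCTTTCagtcaccagc

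The Tnf stretch is chr17:35202019-35202048 (minus strand) and the Ltb stretch chr17:35194410-35194439 (plus strand). The Tnfaip3 stretches are chr10:19015516-19015545 and chr10:19015403-19015432 (minus strand), which lie inside the gene as GENCODE vM21 draws it, from 19000910 to 19015657. The Tnfrsf1b stretch is chr4:145246861-145246890 (minus strand). Relative to the RefSeq start, the TATA box of Tnf spans -29 to -24, the kappaB match of Ltb -87 to -78, those of Tnfaip3 -125 to -116 and -12 to -3, and the interferon core of Tnfrsf1b -10 to -1. The TATA box reads on the strand of its gene, the upstream Tnfaip3 match reads as kappaB on both strands, and the other matches read on the opposite strand, so that the capitals show their complement. The motifs overlap nowhere among these stretches. The windows of Lta and Tnfaip3 also held a TATA box, far from the start, at -167 and -225. These are matches of letters and do not show binding.

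Levels differed widely among the members. Values are DESeq2 normalized counts, that is, counts divided by a size factor for the depth of each library. Per kilobase of exon, Tnfrsf1a was highest with a median of 1064 normalized counts per kb over the tumors, followed by Tnfrsf1b with 719 and Birc3 with 353. Tnfaip3 had 201, Tnf 143, Ltb 62.2 and Tnfsf10 61.2 normalized counts per kb. Lta was near the limit of detection at 6.29 normalized counts per kb, with 0 to 32 counts per tumor and 5 tumors at 0. A count of 0 allows up to 3 counts in a library, so a tumor at 0 may still hold Lta transcript. In bulk tumors, fewer cells that make a transcript and less transcript per cell cannot be told apart.

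**Figure D1:**
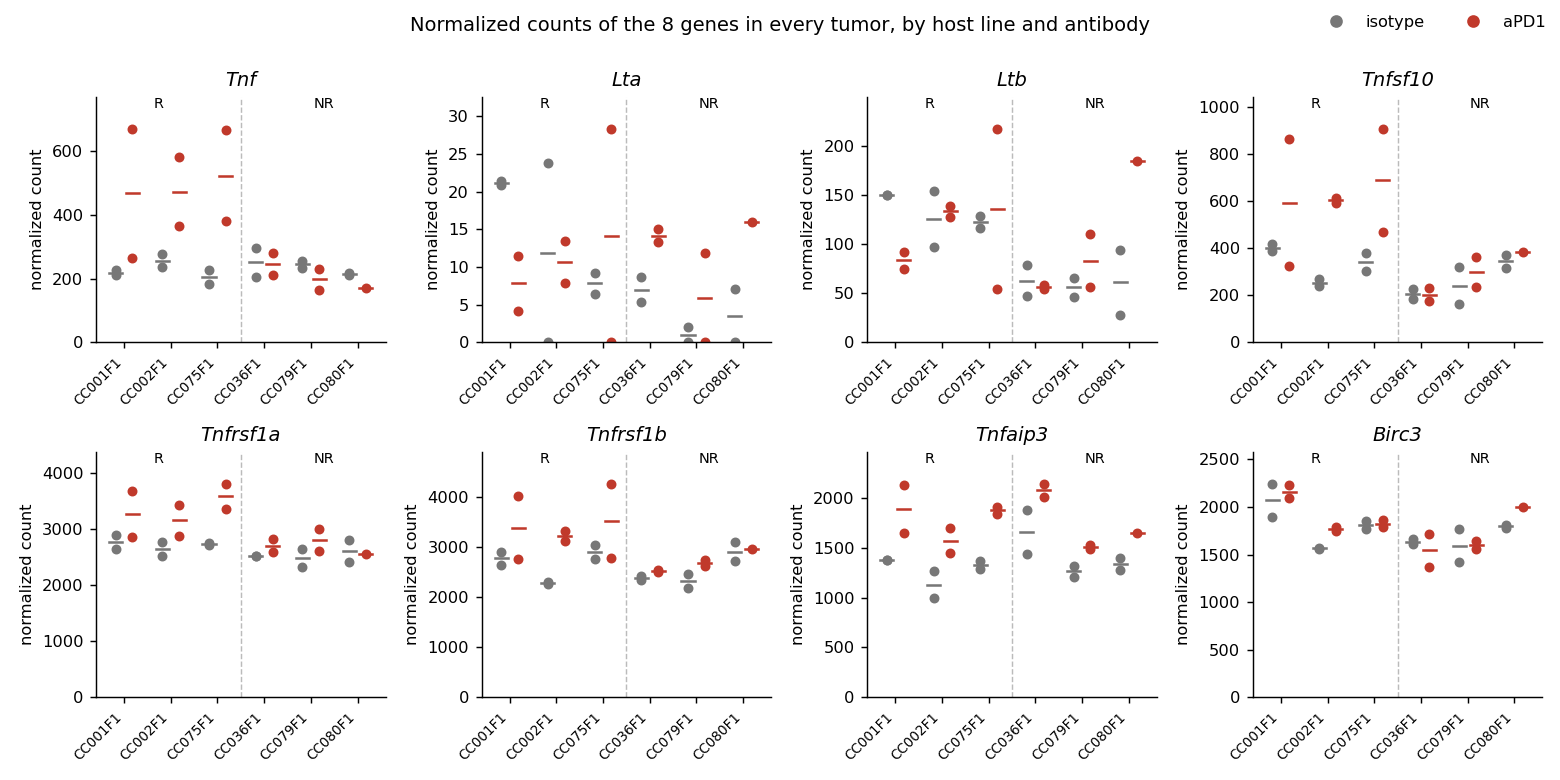
Normalized counts (vertical axes, from 0) of each gene in the 23 tumors, by host line (horizontal axes, R lines left of the dashed line and NR lines right of it) and antibody (grey isotype, red aPD1); points are tumors and bars the mean of a group. Tnf in R tumors with aPD1 ran from 264 to 670 and in NR tumors with aPD1 from 165 to 281, so the groups overlap at their edges.

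The mean of Tnf was higher in R than in NR tumors given aPD1, and the means of the isotype tumors lay within their spread of each other. In CC001F1, its normalized count was 226 and 213 with isotype and 264 and 670 with aPD1. In CC002F1, it was 235 and 276 with isotype and 580 and 364 with aPD1, and in CC075F1 it was 183 and 228 with isotype and 666 and 380 with aPD1. In each R line both aPD1 tumors were above both isotype tumors, although CC001F1 aPD1 replicate 1 (264) lay within the range of the R isotype tumors as a whole (183 to 276) and below the highest NR aPD1 tumor (281).

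In the NR lines the order of the antibodies was not the same. In CC036F1, Tnf was 296 and 205 with isotype and 281 and 211 with aPD1, so the tumors overlapped. In CC079F1, the isotype tumors had 235 and 256 and the aPD1 tumors 165 and 231, and in CC080F1 the isotype tumors had 211 and 218 and the aPD1 tumor 171. Tnf was thus slightly lower with aPD1 in these 2 lines.

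By group, Tnf averaged 227 ± 30.5 (SD, n = 6) in R isotype, 487 ± 174 (SD, n = 6) in R aPD1, 237 ± 34.2 (SD, n = 6) in NR isotype and 212 ± 47.4 (SD, n = 5) in NR aPD1 tumors. The R aPD1 group also had the widest spread of the 4. The fitted log2 change with aPD1 was 1.10 ± 0.22 (SE) for R lines and -0.20 ± 0.17 for NR lines, with a difference of 1.31 ± 0.30. This difference was the contrast in which Tnf was singled out, and over all genes 9 of 26342, or 0.0342%, passed DESeq2 at an adjusted p under 0.05 in it. Leaving out a tumor gave differences of 1.13 to 1.45, and the 17 libraries above 30000000 counts gave 1.31.

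On the scale of log2(normalized count + 1), the change of Tnf with aPD1 came to 0.94 for CC001F1, 0.85 for CC002F1 and 1.3 for CC075F1, against -0.02 in CC036F1, -0.33 in CC079F1 and -0.32 in CC080F1. As ratios, the changes of the R lines were 1.92, 1.80 and 2.46. The standard error of a line's change, pooled over lines, was 0.41, and 0.51 for CC080F1 with its single aPD1 tumor. The R and NR lines did not overlap in these changes.

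Sums of T cell, NK cell and macrophage markers were read in the 3 R aPD1 tumors with the highest Tnf. They were above the medians of the R aPD1 tumors in 2 of these and below them in the other. CC075F1 aPD1 replicate 1 (Tnf 666) had the highest sums of T cell markers (3581 against a median of 1870 in R aPD1 tumors), of NK cell markers (2429) and of macrophage markers (138100, median 86340) of its group. CC001F1 aPD1 replicate 2 (Tnf 670) had the next highest T cell sum (2650) and macrophage sum (104900). The sum of 5 neutrophil markers also peaked in these tumors, at 1710 and 1091 against a median of 763.4. In CC075F1 aPD1 replicate 1, however, 1660 of it was Csf3r alone. S100a8 and S100a9 were highest in CC036F1 aPD1 replicate 2, Retnlg in CC080F1 aPD1 replicate 1 and Cxcr2 in CC075F1 isotype replicate 1. CC002F1 aPD1 replicate 1 (Tnf 580) had the lowest macrophage sum of the group (79520), and its T cell (1466) and NK cell (1105) sums were below the medians of 1870 and 1269. Its T cell, NK cell and neutrophil (767.2) sums were nevertheless above those of the isotype tumors of its line. The latter were 1305 and 752.5 for T cells, 579.4 and 526.7 for NK cells, and 434.8 and 402.0 for neutrophils. The median macrophage sum of R tumors was 88760 with isotype and 86340 with aPD1. Within CC002F1, however, it was 48950 and 46100 with isotype and 79520 and 84800 with aPD1, while in CC001F1 and CC075F1 the antibodies overlapped. In the fit of aPD1 in R lines, all 5 macrophage markers had positive log2 changes, of which DESeq2 called 2 and edgeR 0. Over all genes, DESeq2 called 5.26% in that fit and edgeR called 0 genes. CC001F1 aPD1 replicate 1, lowest of the group for Tnf, had the lowest T cell (976.5) and NK cell (776.5) sums of the R aPD1 tumors and the highest skeletal muscle sum (14490). The part of these cells in the Tnf values was not tested. Of 7 T cell markers, 6 were higher in R than in NR tumors over both antibodies, and of 5 macrophage markers 3 were, at a DESeq2 adjusted p under 0.05. Over all genes, 14.4% were called between these classes, and 7.66% were called higher in R.

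Tnfsf10 was next to Tnf in the size of its change in R lines. Its normalized count was 386 and 419 with isotype and 322 and 863 with aPD1 in CC001F1, 269 and 238 against 615 and 590 in CC002F1, and 304 and 378 against 907 and 467 in CC075F1. The antibodies did not overlap in CC002F1 and CC075F1 and did in CC001F1, again through replicate 1 with aPD1. In NR tumors, Tnfsf10 ran from 163 to 373 with isotype and from 174 to 384 with aPD1. The log2 change was 0.93 ± 0.22 (SE) in R and 0.14 ± 0.19 in NR lines, with a difference of 0.80 ± 0.32.

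Tnfaip3, the A20 gene, was 1 of 2 members with a change above 0 in all 6 lines, the other being Tnfrsf1b. The aPD1 tumors of Tnfaip3 lay above its isotype tumors in every line. How many of all genes do so was not counted, and such changes chose the genes, so nothing is read from this order. In CC075F1, for example, Tnfaip3 had 1290 and 1372 normalized counts with isotype and 1914 and 1838 with aPD1. In CC079F1, it had 1322 and 1205 with isotype and 1484 and 1528 with aPD1. The changes by line, on the log2(normalized count + 1) scale, were 0.45, 0.48 and 0.50 in CC001F1, CC002F1 and CC075F1 and 0.34, 0.25 and 0.30 in CC036F1, CC079F1 and CC080F1. The ranges of the R and NR lines did not touch, but they were close, and each line's pooled error was 0.15. The fitted change was 0.47 ± 0.085 (SE) in R and 0.29 ± 0.082 in NR lines, with a difference of 0.19 ± 0.12.

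The receptors moved less. The log2 change of Tnfrsf1a with aPD1 was 0.29 ± 0.080 (SE) in R and 0.10 ± 0.072 in NR lines, and that of Tnfrsf1b 0.35 ± 0.11 and 0.11 ± 0.063. All 3 R lines were above 0 for both receptors, with Tnfrsf1b between 0.25 and 0.50 and Tnfrsf1a between 0.23 and 0.39. Birc3, a ubiquitin ligase of the TNFR1 complex and an NF-kB target like Tnfaip3, had a log2 change of 0.08 ± 0.060 for R and 0.01 ± 0.086 for NR lines. Its normalized counts overlapped between antibodies in 4 of the 6 lines, and nothing is read from this, as for Tnfaip3.

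**Figure D2:**
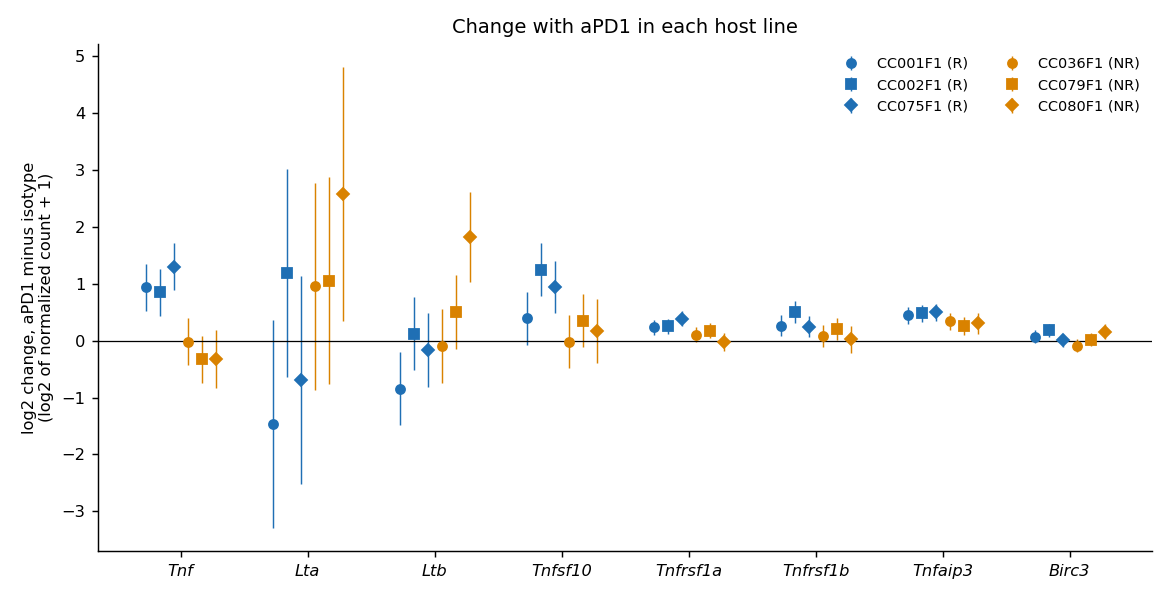
Change with aPD1 in each host line, on the log2(normalized count + 1) scale (vertical axis), for the 8 genes (horizontal axis); blue marks are R and orange NR lines, and bars are the standard error pooled over lines. Tnf lies between 0.85 and 1.3 in R lines and between -0.33 and -0.02 in NR lines, and Tnfaip3 is above 0 in all 6 lines.

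The lymphotoxins did not follow Tnf, although they are its neighbours on the chromosome. Ltb had 150 and 150 normalized counts with isotype and 75.0 and 92.4 with aPD1 in CC001F1, 154 and 97.2 against 139 and 128 in CC002F1, and 116 and 128 against 217 and 53.9 in CC075F1. Ltb was thus lower with aPD1 in CC001F1 and overlapped between antibodies in the other R lines. In NR tumors, Ltb was 78.2 and 46.9 with isotype and 58.6 and 54.5 with aPD1 in CC036F1, 46.5 and 65.4 against 110 and 56.0 in CC079F1, and 94.2 and 28.2 against 185 in CC080F1. The fitted log2 changes were -0.19 ± 0.28 (SE) in R and 0.60 ± 0.36 in NR lines.

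The higher Ltb values of NR tumors with aPD1 were those of tumors with lymph node transcripts. Glycam1, a product of the vessels by which lymphocytes enter lymph nodes, had counts in 3 tumors, with 387 in CC002F1 isotype replicate 1, 339 in CC079F1 aPD1 replicate 1 and 309 in CC080F1 aPD1 replicate 1, and a count of 0 in the other 20. These tumors had the highest B cell marker sums, 1127, 916 and 1987, while no other tumor passed 328.6. Ltb was 154, 110 and 185 in them and Lta 23.8, 11.9 and 15.9. Without them the change of Ltb in NR lines was -0.07 in place of 0.60, and the difference between R and NR lines was -0.07 in place of -0.78. The change of Tnf in NR lines was -0.04 without them and -0.20 with them. Leaving them out removes the single aPD1 tumor of CC080F1, so the NR changes then rest on the aPD1 tumors of CC036F1 and CC079F1.

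Lta was sparse and is given with its counts. It ran from 0 to 23.8 normalized counts in R isotype, 0 to 28.3 in R aPD1, 0 to 8.69 in NR isotype and 0 to 15.9 in NR aPD1 tumors, and all 4 groups overlapped. Its fitted log2 changes with aPD1 were -0.23 ± 0.82 (SE) in R and 1.82 ± 0.95 in NR lines. In NR lines that change became 0.65 without the 3 tumors with Glycam1 counts, a fit with no aPD1 tumor of CC080F1.

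**Figure D3:**
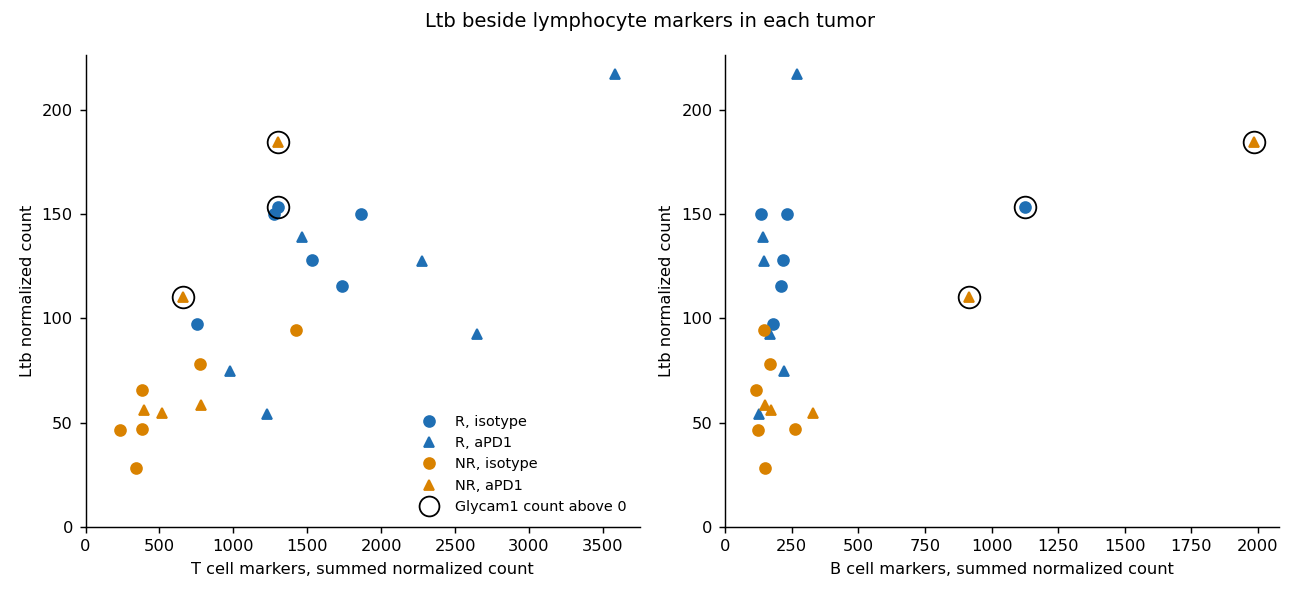
Normalized count of Ltb (vertical axes) in each of the 23 tumors beside the summed normalized counts of 7 T cell markers (left) and 5 B cell markers (right); circles are isotype and triangles aPD1 tumors, blue R and orange NR, and rings mark the 3 tumors with Glycam1 counts. The ringed tumors have the highest B cell sums, and the tumor with the highest Ltb (217) has the highest T cell sum (3581).

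The next question was whether the members differed between R and NR hosts without aPD1. In isotype tumors, Ltb was the only tested member that DESeq2 called, and edgeR and limma did not call it. The R tumors had 132 ± 22.9 normalized counts (SD, n = 6) and the NR tumors 59.9 ± 24.1 (SD, n = 6), and the lowest R tumor (97.2) was above the highest NR tumor (94.2). The log2 difference was 1.12 ± 0.25 (SE; DESeq2 adjusted p = 0.0013), against a background of 829 of 14995 genes called, or 5.53%. In edgeR, which called 30 genes or 0.122% in this comparison, its adjusted p was 0.077 and in limma, with a random effect for line, 0.13. Leaving out any isotype tumor kept the DESeq2 call, with differences of 0.99 to 1.33. The isotype tumors also enter the antibody changes that chose the genes, so none of these tests is independent of that choice. Their p-values are given as a description. DESeq2 and edgeR here also take the tumors of a line as independent. Of the other tested members, 5 were not called, among them Tnfsf10 (0.33 ± 0.21, DESeq2 adjusted p = 0.37) and Tnfrsf1a (0.10 ± 0.058, DESeq2 adjusted p = 0.31), and Lta (1.77 ± 0.90) had too few counts for DESeq2 to give an adjusted p. The sum of T cell markers ran from 752.5 to 1866 in R isotype and from 231.4 to 1425 in NR isotype tumors, so the ranges overlapped. In isotype tumors DESeq2 called 1 of the 7 markers, higher in R, and edgeR 0. The part of T cells in the Ltb difference was not tested.

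Over both antibodies the R against NR values are a description, because the aPD1 tumors, whose changes chose the genes, enter them. With all tumors in the fit and a term for antibody, the log2 difference was 0.75 ± 0.24 (SE) for Ltb, 0.74 ± 0.19 for Tnfsf10 and 0.54 ± 0.18 for Tnf, which in isotype tumors had 1.12, 0.33 and -0.05. The receptors Tnfrsf1a and Tnfrsf1b were at 0.20 ± 0.055 and 0.19 ± 0.082, Birc3 at 0.16 ± 0.070, Tnfaip3 at -0.08 ± 0.085 and Lta at 0.83 ± 0.60. Without the line CC036F1, the values of Ltb and Tnfsf10 were 0.59 and 0.52. Line means over both antibodies did not overlap between the classes, with R higher, for Tnf, Ltb, Tnfsf10 and Tnfrsf1a, or 4 of the 8 members, and for 13.9% of the 14879 genes whose mean normalized count reached 20. Nothing is read from that count, since the same aPD1 tumors enter the means.

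**Figure D4:**
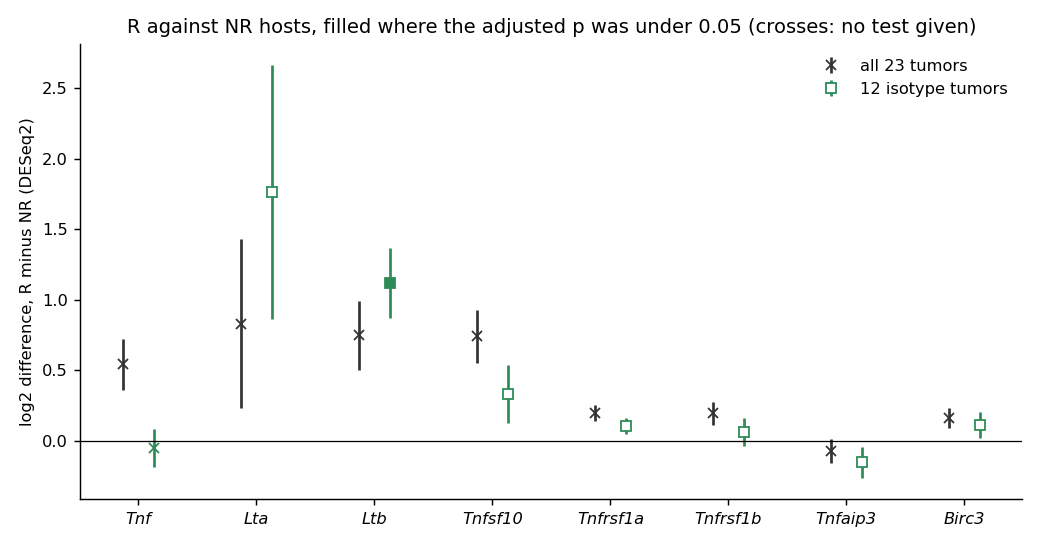
Log2 difference between R and NR tumors (vertical axis, DESeq2) of the 8 genes (horizontal axis), over all 23 tumors (black) and over the 12 isotype tumors (green); bars are standard errors, filled marks passed an adjusted p under 0.05, and crosses mark values given without a test. Ltb in isotype tumors, at 1.12, is the filled mark.

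Calls among the host lines fell on a partly different set of members. In the likelihood ratio test of the 6 lines with antibody as a term, which takes tumors as the replicates of a line, Birc3, Tnfaip3, Tnfsf10 and Tnfrsf1b of the 7 members other than Tnf passed, with DESeq2 adjusted p of 2.66e-05, 4.8e-04, 0.0012 and 0.038. Over all genes, 3067 of 19192 passed, or 16%. edgeR, which called 6.32% of all genes, kept Birc3 (0.0047), Tnfaip3 (0.013) and Tnfsf10 (0.025) but not Tnfrsf1b (0.092). Ltb, called between classes in isotype tumors, did not pass here (DESeq2 adjusted p = 0.11, edgeR adjusted p = 0.26). The aPD1 tumors enter this test too, and its line terms contain the difference between R and NR hosts. It is therefore not independent of how the genes were chosen, and its p-values are a description, not support. A test of the isotype tumors alone shares that limit, since they enter the antibody changes as well. In the isotype tumors alone, with 2 per line, Tnfrsf1b passed (DESeq2 adjusted p = 0.016), where 9.95% of 17877 genes were called, and Tnfsf10, Tnfaip3 and Birc3 did not (DESeq2 adjusted p = 0.064, 0.14 and 0.17).

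Birc3 was highest in CC001F1, with 2115 ± 164 normalized counts (SD, n = 4), followed by CC080F1 with 1864 ± 121 (SD, n = 3) and CC075F1 with 1817 ± 46.9 (SD, n = 4). CC002F1 (1667), CC079F1 (1600) and CC036F1 (1588) followed. Each pair of neighbours in this order overlapped in its tumors, while the lowest CC001F1 tumor (1891) was above the highest of CC075F1 (1858) and of all lines but CC080F1. The highest lines held both classes. Without CC001F1 the line test of Birc3 did not pass (DESeq2 adjusted p = 0.12).

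Tnfaip3 had another order. CC036F1, an NR line, was highest with 1867 ± 307 normalized counts (SD, n = 4) and CC002F1, an R line, lowest with 1352 ± 295 (SD, n = 4). The other lines had means between 1385 and 1631, and neighbours in the order overlapped in their tumors throughout. Without CC036F1 the DESeq2 adjusted p was 0.16. Tnfsf10 was lowest in CC036F1, with 204 ± 29.8 (SD, n = 4), and its 4 tumors there (174 to 232) were all below the lowest R tumor (238.1). Its line test also rested on CC036F1, without which the adjusted p was 0.21.

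The rest of the pathway was read from lists of 107 other genes in the table. They comprised 14 ligands and 25 receptors of the TNF superfamilies, 33 genes of the receptor complexes, cell death and ubiquitin, 11 of NF-kB and its inhibitors and 24 that TNF or NF-kB induce. Over all tumors, DESeq2 gave 100 of them an adjusted p, and 19 differed between R and NR hosts, 17 higher and 2 lower in R. Over all genes, 2548 of 17643 passed, or 14.4%, and 7.66% passed in the positive direction. edgeR, which called 6.7% of all genes, called 12, all of them shared. The median log2 difference was 0.080 over the 107 genes and -0.00042 over all genes tested.

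Of the 14 ligands, 12 had an adjusted p, and 4 were called higher in R tumors. These were Tnfsf15 (TL1A, a costimulator of T cells) by 1.66 ± 0.55 (SE, log2), Fasl (the T and NK cell death ligand) by 1.38 ± 0.29, Tnfsf11 (RANKL) by 1.00 ± 0.34 and Tnfsf13b (BAFF, a survival factor of B cells). Tnfsf15 and Tnfsf11 had low counts, with means of 15.2 and 16.7 over the tumors. Fasl had 72.1 ± 28.9 normalized counts (SD, n = 6) in R isotype and 26.5 ± 21.8 (SD, n = 6) in NR isotype tumors.

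Of the 25 receptors, 23 had an adjusted p, and 6 were called higher and 1 lower in R tumors. Cd27, a costimulatory receptor of T cells, was higher by 1.22 ± 0.27 (SE), Cd40, the receptor by which T cells license dendritic cells and macrophages, by 0.85 ± 0.19, and Tnfrsf4 (OX40) by 0.54 ± 0.18. Eda2r, the ectodysplasin A2 receptor, was lower by -0.27 ± 0.094. The called Tnfrsf22 and Tnfrsf23 are near-identical decoy receptors of TRAIL that lie side by side on chromosome 7, and the counting could split reads between them.

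The intracellular genes were mostly level. Of 33 receptor complex, cell death and ubiquitin genes, 3 were higher in R tumors, namely Ripk3 (the kinase of necroptosis) by 0.67 ± 0.12 (SE), Traf1 by 0.22 ± 0.057 and Tnip1, a partner of A20, by 0.19 ± 0.069. Of 11 NF-kB genes, 1 was, the nuclear inhibitor family member Bcl3, by 0.47 ± 0.17. Of the 24 induced genes, 21 had an adjusted p. Icam1 (a leukocyte adhesion molecule) was higher by 0.78 ± 0.15, Zfp36 (which degrades Tnf mRNA) by 0.41 ± 0.12 and Irf1 by 0.31 ± 0.082, and Tnfaip6 was lower by -0.80 ± 0.29. In isotype tumors alone DESeq2 called 5 of 92 with an adjusted p, a share close to the 5.53% of all genes, so the lists did not stand out there. The 5 were higher in R, namely Fasl (1.37 ± 0.45), Cd27 (1.11 ± 0.32), Tnfrsf22 (0.32 ± 0.078), Ripk3 (0.54 ± 0.17) and Icam1 (0.53 ± 0.17). In these tumors edgeR and limma called 0 of them, and 19 had an unadjusted p under 0.05 in edgeR.

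The pathway genes were then compared between aPD1 and isotype within each class. In R lines DESeq2 called 15 of 96 genes with an adjusted p, all higher with aPD1, where 826 of 15701 genes, or 5.26%, were called in all. edgeR called 0 of the 107, of which 32 had an unadjusted p under 0.05, and 0 of all genes, of which 2621 did, so these calls rest on DESeq2. In NR lines DESeq2 and edgeR called 0 of the 107, of which 10 and 12 had an unadjusted p under 0.05, and DESeq2 called 11 of 24552 genes, or 0.0448%, in all. The difference between the classes was also called for 0 of the 107 by DESeq2 and edgeR, with 14 and 12 at an unadjusted p under 0.05, so a change in R lines that exceeds that in NR lines is not shown for any of them.

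The R line calls came from each of the 5 lists. Of the ligands, Tnfsf4 (OX40 ligand) rose by 1.25 ± 0.36 (SE, log2) and Tnfsf13b by 0.65 ± 0.16. Of the receptors, Cd40 rose by 0.91 ± 0.21, Tnfrsf21 (death receptor 6) by 0.45 ± 0.11 and Tnfrsf14 (HVEM) by 0.38 ± 0.11. Rhbdf2, the partner that brings ADAM17 to the cell surface, rose by 0.41 ± 0.12, and Cflar (c-FLIP, the inhibitor of caspase-8) by 0.22 ± 0.067. The NF-kB regulators Bcl3 and Nfkbiz rose by 0.92 ± 0.25 and 0.49 ± 0.11.

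Of the 24 induced genes, 20 had an adjusted p for aPD1 in R lines, and DESeq2 called 6 of them, all higher with aPD1. Over all genes it called 5.26%. Of the 6, the largest changes were those of Il1b (interleukin 1 beta) at 0.79 ± 0.19 (SE), Zfp36 at 0.69 ± 0.17 and Cxcl10 (a chemokine for T cells) at 0.67 ± 0.16. In NR lines the same genes changed by 0.69 ± 0.22, 0.35 ± 0.12 and 0.30 ± 0.21, none of them called. The NR values of Cd40 and Tnfsf13b were 0.27 ± 0.17 and -0.17 ± 0.29. The number of calls in R lines moved with single tumors, from 7 without CC001F1 aPD1 replicate 2, CC002F1 aPD1 replicate 1 or CC075F1 aPD1 replicate 1 to 26 without CC001F1 aPD1 replicate 1.

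**Figure D5:**
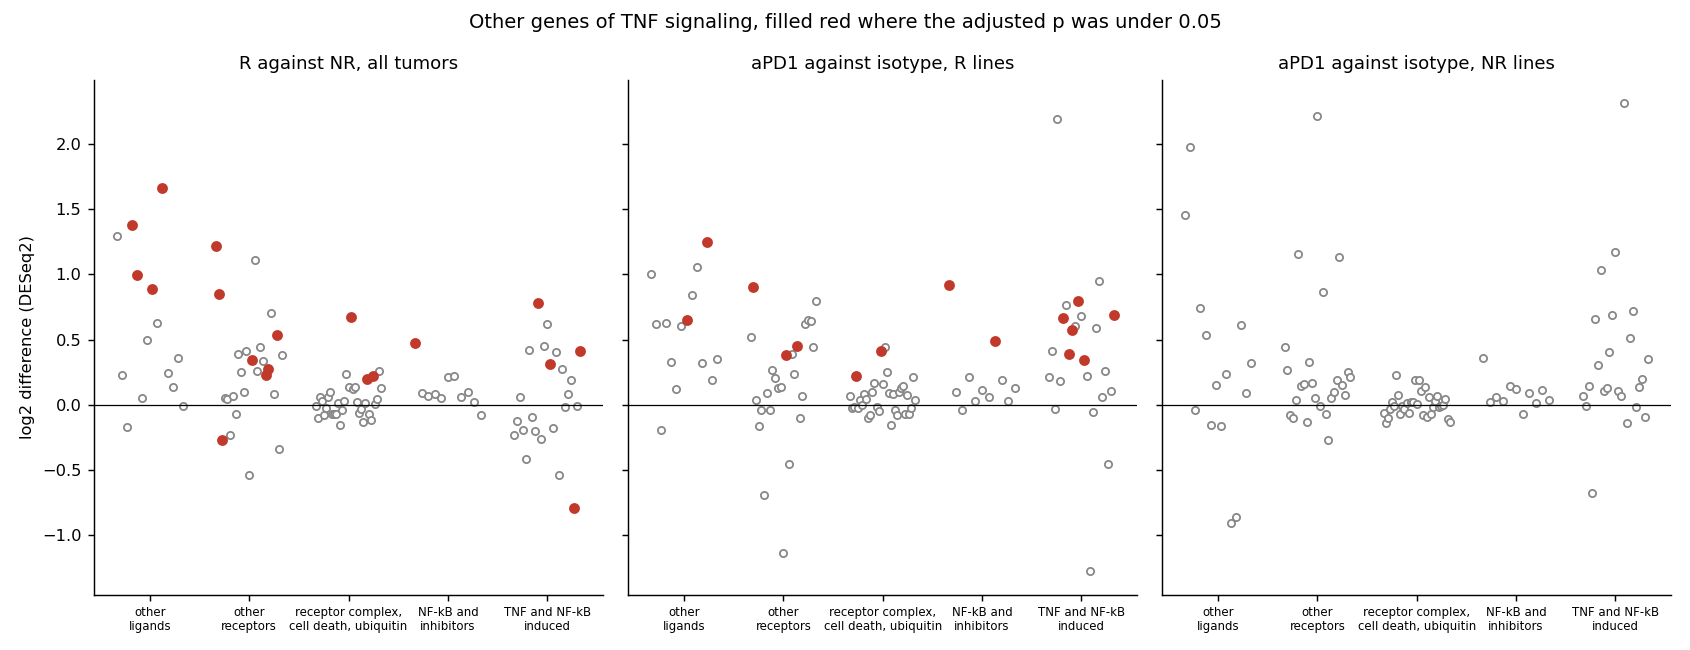
Log2 differences (vertical axis, DESeq2) of the 107 other genes of TNF signaling in 5 lists (horizontal axes), between R and NR tumors (left), and between aPD1 and isotype in R lines (middle) and NR lines (right); red marks passed an adjusted p under 0.05. There are 19 red marks on the left, 15 in the middle, all above 0, and 0 on the right.

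The genes whose levels were most like those of each member over the 23 tumors were found by Pearson's r of log2(normalized count + 1), as a description, among 14872 genes whose mean normalized count reached 20. For Tnf these included Ptpre (a tyrosine phosphatase, r = 0.90) and Ptafr (the platelet-activating factor receptor, 0.87). For Tnfsf10 they were Ifi203 (0.95), Unc93b1 (a chaperone of Toll-like receptors, 0.95) and Ifi209 (0.93), of which the Ifi genes are interferon-induced. For Ltb they were Gimap8 (0.84), Gimap3 (0.83) and 2010016I18Rik (0.83), and the Gimap genes are GTPases of lymphocytes. All tumors share host lines and the mix of cells, so these values do not separate regulation from composition.

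The receptors had Grn (progranulin) in common, with r of 0.92 to Tnfrsf1a and 0.93 to Tnfrsf1b. Ppt2 (0.94) and Grb2 (0.92) were the others for Tnfrsf1a, and Siglec1 (a sialic acid receptor of macrophages, 0.91) and Slfn5 (0.90) for Tnfrsf1b. Tnfaip3 was closest to Ppp1r3b (0.91), Tnfsf9 (4-1BB ligand, 0.91) and Gch1 (0.89), and Birc3 to Xcr1 (the chemokine receptor of cross-presenting dendritic cells, 0.81), Tor4a (0.81) and S1pr2 (0.80). Lta, with few counts, had Fam169b (0.78), Cish (0.76) and Pacsin1 (0.75). Among the members themselves, r was highest between Tnfsf10 and Tnfrsf1b (0.85) and between Tnf and Tnfrsf1a (0.83), and Tnf had 0.20 to Ltb and 0.12 to Lta, while Lta and Ltb had 0.71 to each other.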

How the data were processed

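Bulk poly(A) RNA-seq values of 23 MC38 tumors were analyzed. The authors mapped reads with Bowtie 1.2.3 (per the labels) to transcriptomes of the founder strains built on GRCm38 and GENCODE annotation, and apportioned them to genes by an estimate that sums the founder haplotypes. The deposited values are expected counts, not scaled for depth, of which 16.946% were not whole, and they were rounded. Reads shared between genes are split by this estimate, so near-identical genes are less certain. Gene names and positions came from GENCODE vM21, a release earlier than the study's on the same build, which matched 26681 of 26869 identifiers.

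Groups came from the labels, and the R and NR classes from the study's text. Genes with at least 5 counts over the libraries of a fit were tested with DESeq2 1.42.0 (default options, the study's method) in R 4.3.3, and calls had a Benjamini-Hochberg adjusted p under 0.05 over all genes. R against NR used antibody as a term, aPD1 against isotype used line, and lines were compared by likelihood ratio test. Alternatives were edgeR 4.0.16 (quasi-likelihood, TMM), limma 3.58.1 (voom, line as a random effect), TMM scaling, other count filters, counts summed per line, deep libraries, a depth term, a replicate block, and leaving out tumors with Glycam1 counts, each tumor or each line, and, added after the data were seen, the line test in isotype tumors only. The scripts were tested on simulated counts. Replicates of a group differed by more than sampling noise (chi-square per degree of freedom 9.726 to 135.86).

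The 8 genes, the pathway and marker lists and the tests were chosen with earlier results of these data known. Because the antibody changes chose the genes, their p-values in those fits are not given, nor those between classes over all tumors, nor any of Tnf, although the fits were made. Edar, on the receptor list, was not analyzed here. Named genes are all 8 members, up to 3 of the highest and 3 of the lowest called log2 differences per list and comparison, and the 3 genes with the highest Pearson r to each member, of which 1 is not reported here. Lines were compared for the other pathway genes by count alone. Tnfsf13b, Tnfrsf22 and Tnfrsf23 fell outside the rule between classes over all tumors and were named after their values were seen. Promoter windows are from RefSeq. Errors of line changes are pooled over the groups with 2 tumors.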

Additional observations from a re-analysis of the deposited data

Results flagged for a closer look

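The change of Tnf with aPD1 was above 0 in every R line and below 0 in every NR line. The mean of the 3 R lines exceeded that of the 3 NR lines by 1.25 on the log2(normalized count + 1) scale. In CC036F1, however, the change was -0.02 with a pooled standard error of 0.41, and the tumors overlapped. In CC080F1 it was -0.32 with an error of 0.51 and rested on a single aPD1 tumor. Tnf was singled out on the contrast of R and NR lines, and the difference was not tested here.

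A single tumor stood apart from the others of its group in 3 of 32 groups of 5 or 6 tumors by Dixon's criterion, which chance meets in about 1 of 20. Lta was at 0.0 normalized counts in CC002F1 isotype replicate 2, the lowest of the R isotype tumors, and at 0.0 in CC079F1 aPD1 replicate 2, the lowest of the NR aPD1 tumors. Tnfaip3 was at 998.3 normalized counts in CC002F1 isotype replicate 1, below the other R isotype tumors (1266 to 1376), and this tumor was also among the 3 with Glycam1 counts.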

How the results depend on the processing

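The counts of calls depended on method and samples more than the log2 values did. Between classes over all tumors, 19 other pathway genes were called, and 12 in edgeR, 11 in deep libraries, 10 with counts summed per line and 11 without CC079F1. In isotype tumors the 5 pathway calls became 0 in edgeR, 0 in limma, 0 in deep libraries, 2 with a depth term, 2 without the tumors with Glycam1 counts, 1 without CC001F1, 2 without CC002F1, 1 without CC036F1, 0 without CC079F1 and 8 without CC080F1, and 1 to 9 without single tumors. The call of Ltb there was lost, leaving 0, in edgeR, in limma and in deep libraries. Among lines, 28 pathway and 4 listed calls became 15 and 1 without CC036F1, and the listed calls 1 in isotype tumors only, a test added after the data were seen. For aPD1 in R lines, 15 pathway calls became 0 in edgeR, 9 without the tumors with Glycam1 counts, 5 without CC002F1 and 4 without CC075F1, and 7 to 26 without single tumors. In NR lines 0 calls became 4 without the tumors with Glycam1 counts, 1 without CC079F1 and 5 without CC080F1, and 0 to 5 without single tumors. The difference between classes gave 2 without CC001F1 and 0 to 1 without single tumors. The cause of these shifts was not tested. Below the threshold, the class difference of Tnfrsf1b in isotype tumors became -0.0100 without CC075F1.

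Same-numbered tumors of a line did not deviate together (r -0.0648 to 0.2806 over 5 line pairs, over 0.1 in 2 of them), so the numbers do not pair tumors. With the replicate block, the pathway calls were 20 between classes, 5 in isotype tumors, 29 among lines, 15 for aPD1 in R lines, 1 in NR lines and 0 for the difference, and the listed calls were 1 in isotype tumors and 4 among lines. Depth limits Lta most, with at most 32 counts in a tumor.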

Other observations

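Tumors with Glycam1 counts also carried other lymph node transcripts. The summed normalized counts of 6 lymph node markers were 1002, 782.1 and 1228 in the 3 tumors and at most 46.67 in the others. Shisal2b, by which the study marks MC38 cells, had a median of 694.1 normalized counts over all tumors, while the epithelial genes Epcam, Krt8 and Krt18 had medians of 13.04, 17.17 and 15.37, so the labelled cell line was read mainly from the first of them. Skeletal muscle markers reached sums of 14490 in CC001F1 aPD1 replicate 1 and 6612 in CC001F1 isotype replicate 1, where Tnf was 264 and 226 normalized counts.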
